A study of Mus musculus with 48 samples.

Results

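The response of primary mouse lung fibroblasts to TRAP-6 was compared between cells of the Gai line and cells of the Gaq and Ga13 lines. The comparison used 36 of the 48 libraries of the series, 12 from each of these 3 lines, and was chosen by its design: in 1 fit, the mean TRAP-6 response of Gai was set against the average of the mean responses of Gaq and Ga13. All cells came from mice heterozygous for a BERKY3 biosensor allele, named for the G protein alpha subunit it reports on (Gai*-BERKY3, Gaq*-BERKY3 or Ga13*-BERKY3). BERKY sensors are luminescent proteins that bind the active, GTP-bound form of an alpha subunit. Every culture was seeded at 160000 cells per well and received, about 18 h later, polybrene with 1 of 2 adeno-associated viruses at 1:1000. The AAV2/1-CMV-Cre virus carries Cre recombinase under the CMV promoter, which switches the biosensor on, and AAV2/1-CMV-empty leaves it off. For the last 90 min the medium was replaced by fresh medium with 100 µM TRAP-6 or by fresh medium alone. Each of the 12 groups of line, virus and stimulation had 3 libraries of poly-A selected RNA. Each line was cultured from its own mice, so line and cell preparation cannot be told apart. The labels give replicate numbers without saying whether they mark separate animals or cultures, so the p-values measure the spread between these libraries, which may be technical. Animal age, sex and number are not given in the sources used here.

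TRAP-6 is the tethered-ligand peptide of the thrombin receptor PAR1, encoded by F2r. In fibroblasts PAR1 couples to G proteins of the Gi, Gq and G12/13 families, which act on adenylyl cyclase, on phospholipase C and calcium, and on RhoA and the actin cytoskeleton. Within about an hour such signals induce immediate early genes, among them the FOS, EGR and NR4A families, through the transcription factors CREB, SRF with its cofactor MRTF, AP-1 and NFAT. Cytoskeletal tension also activates the coactivators YAP and TAZ.

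Each library held 15606007 to 42564149 counts. The biosensor transcript, left out of every test, had group means of 0.314 to 0.728 CPM (counts scaled to a common library size) with empty virus and of 83.1 to 135.6 CPM with Cre. F2r was detected in all libraries, with lowest, median and highest resting levels of 404.8, 429.1 and 451 CPM in Gai, 371.5, 401.6 and 433.3 CPM in Gaq, and 438.6, 461.2 and 497.3 CPM in Ga13. Its TRAP-6 response was not shown to differ, at -0.07 ± 0.03 (SE) between Gai and the other lines (edgeR adjusted p = 0.31). F2rl1, which encodes PAR2, stayed at or below 4.40 CPM in every library. All 12 fibroblast markers were detected. They summed to 44529 to 62865 CPM in Gai, 51607 to 66276 CPM in Gaq and 62984 to 67698 CPM in Ga13. The lines differed in markers of other cell types, for which fewer cells of a type and less RNA per cell cannot be told apart in bulk samples. At rest the 10 smooth muscle and pericyte markers summed to 3050 to 3586 CPM in Gai, 1735 to 1870 CPM in Gaq and 2621 to 3003 CPM in Ga13. The 14 tested macrophage markers summed to 1309 to 1640 CPM in Gai, 450 to 656 CPM in Gaq and 232 to 331 CPM in Ga13. The 10 endothelial markers summed to 26.8 to 34.6 CPM in Gai and to 10.4 to 20.1 CPM in the other lines. No macrophage or endothelial marker passed the test of a difference in its TRAP-6 response, and the part of these cells in the results below was not tested. The replicate-1 libraries of Gai stood apart from its other replicates: their deviations from the group means correlated with each other at 0.25 to 0.32, against 0.03 to 0.14 for its replicates 2 and 3 and at most 0.08 in the other lines.

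TRAP-6 raised a set of signalling, cytoskeletal and secreted-factor genes less in Gai fibroblasts than in Gaq and Ga13 fibroblasts, Sgk1, Nr4a2, Usp2 and Filip1l with the smallest p. The response differed in 283 of 16749 genes tested (percent called 1.69), by edgeR's quasi-likelihood test at a Benjamini-Hochberg adjusted p under 0.05. Of these, 225 were lower in Gai (1.34 percent of genes tested) and 58 were higher (0.346 percent). Differences were small: 16 of the lower and 3 of the higher genes differed by at least 1.5-fold. The fit holds the replicate number within each line as a block. It counts the empty-virus and Cre responses of 1 replicate number as separate. Where these move together, as in Gai replicate 1 below, standard errors and p-values may be too small. Without that block 68 genes were called, 64 lower and 4 higher, and all 68 were among the 283. The count also rested on the Gai replicates: it was 492 without Gai replicate 1, 196 without Gai replicate 2 and 120 without Gai replicate 3, of which 251, 179 and 120 were among the 283.

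**Figure D1:**
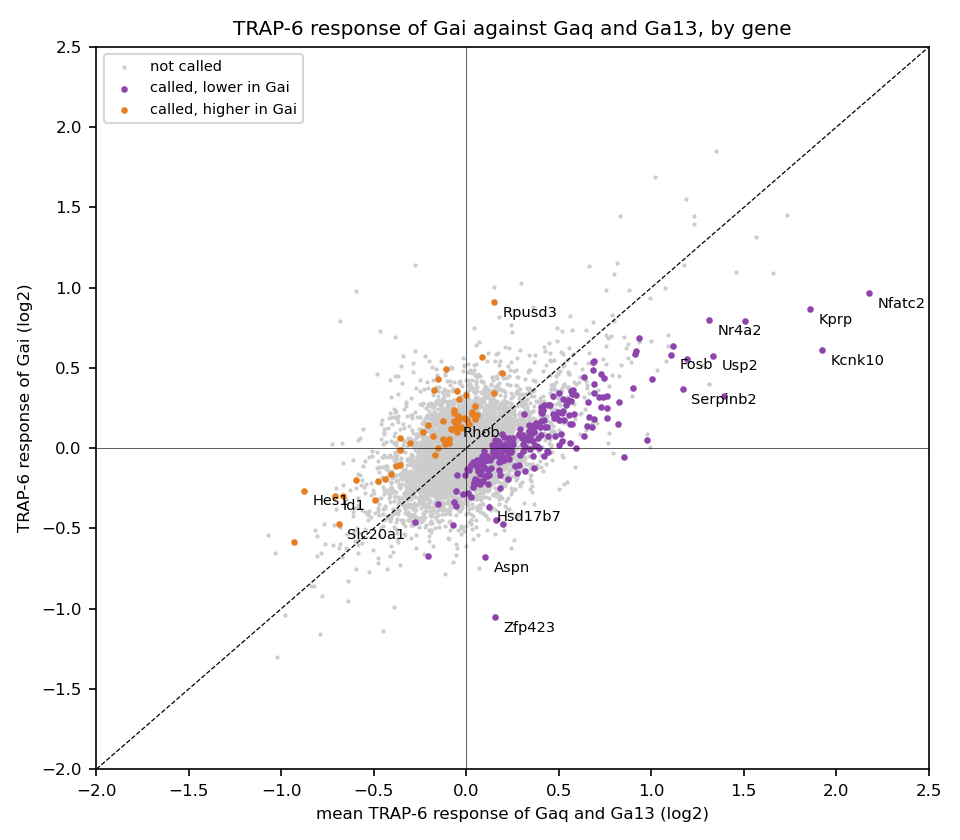
TRAP-6 response of each gene in Gai (vertical axis, log2 of TRAP-6 over medium) against the mean response of Gaq and Ga13 (horizontal axis, log2). Points are tested genes with a mean of at least 1 CPM or a called difference; the dashed line marks equal responses, and most of the 225 genes lower in Gai lie to its right, at positive values of the other lines.

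In 215 of the 225 lower genes, Gaq and Ga13 responded upwards on average. Of the 225, 128 had a smaller response of the same sign in Gai, 87 had a response of the opposite sign, and 10 had a larger response of the same sign. Their median responses were 0.03 on the log2 scale in Gai, 0.26 in Gaq and 0.32 in Ga13. The 58 higher genes had median responses of 0.14 in Gai, -0.06 in Gaq and -0.12 in Ga13. For a closer view the response was also taken in each pair of libraries of the same line, virus and replicate number, 6 pairs per line. In 27 genes (0.161 percent of genes tested) all 6 Gai pairs lay below all 12 pairs of Gaq and Ga13, and 26 of these were among the 225. In 4 genes (0.0239 percent) they lay above, and 3 of these were among the 58.

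The same order was seen in the medians over genes chosen without Gai. Among 886 genes that rose in Ga13 (5.29 percent of genes tested), the median response was 0.10 in Gai and 0.19 in Gaq. Among 836 genes that rose in Gaq (4.99 percent), it was 0.11 in Gai and 0.19 in Ga13. Genes that fell gave a smaller gap: over 802 genes that fell in Ga13 (4.79 percent) the medians were -0.11 in Gai and -0.12 in Gaq, and over 447 that fell in Gaq (2.67 percent) they were -0.16 in Gai and -0.21 in Ga13. By pair of libraries, the medians over genes that rose in Ga13 ran from 0.06 to 0.19 in Gai and from 0.14 to 0.24 in Gaq. Over genes that rose in Gaq they ran from 0.07 to 0.17 in Gai and from 0.17 to 0.21 in Ga13. The replicate-1 pairs of Gai were at 0.16 to 0.19 and made the overlap, while its other pairs stayed at or below 0.11. The empty-virus and Cre pairs of that replicate number thus lay together, although the fit counts them as separate. Over genes that fell the pairs overlapped. For those that fell in Ga13 they ran from -0.144 to -0.094 in Gai and from -0.140 to -0.111 in Gaq. For those that fell in Gaq they ran from -0.196 to -0.138 in Gai and from -0.237 to -0.185 in Ga13. Of the 886 genes that rose in Ga13, 317 (35.8 percent) were also called up in Gai, where 3.16 percent of all genes tested rose and 2.48 percent fell, and 519 (58.6 percent) in Gaq. These values describe the libraries and carry no test.

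**Figure D2:**
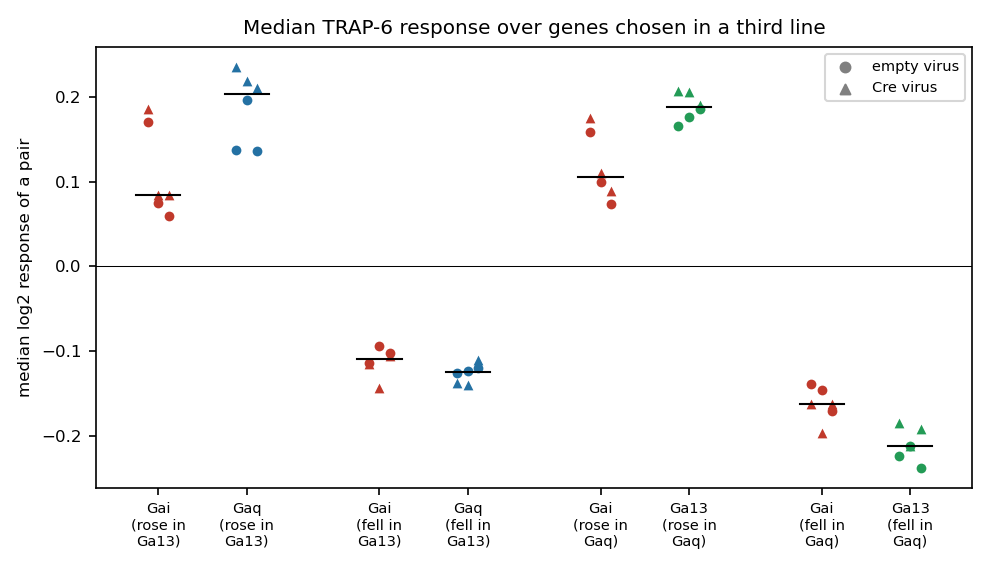
Median log2 TRAP-6 response of each pair of libraries (points; circles empty virus, triangles Cre) over genes called in a line that is not plotted, with the median of 6 pairs as a bar. Among genes that rose in Ga13, 4 of 6 Gai pairs lie below every Gaq pair, and among genes that rose in Gaq, 5 of 6 Gai pairs lie below every Ga13 pair.

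The gene lists below were chosen with earlier results of these data known, so their shares of called genes are no independent evidence about a pathway. Over all genes tested, 1.34 percent were called lower in Gai and 0.346 percent higher. Several immediate early genes and feedback regulators of the ERK pathway had a lower response in Gai. Of 50 such genes, 12 were lower in Gai (Errfi1, Fosb, Ier5, Csrnp1, Fosl2, Dusp10, Myc, Spry2, Egr1, Dusp4, Btg1 and Dusp1) and 2 were higher (Jun and Ier5l). The called members were 28 percent of the list, beside 1.69 percent of all genes tested. The median difference was -0.09, beside 0.001 over all genes tested. In each line most of the list responded, up or down: 24 rose and 9 fell in Gai, 30 and 9 in Gaq, and 33 and 8 in Ga13. Fosb, which encodes a FOS family partner of JUN in AP-1, had lowest, median and highest levels of 587, 703 and 787 CPM at rest and 857, 1064 and 1115 CPM with TRAP-6 in Gai, 341, 390.1 and 520.2 CPM at rest and 831, 869 and 1035 CPM with TRAP-6 in Gaq, and 378, 409.5 and 429 CPM at rest and 763, 874 and 965 CPM with TRAP-6 in Ga13. All 6 resting Gai libraries lay above all resting libraries of the other lines, while the stimulated libraries overlapped. Its mean responses were 0.58, 1.13 and 1.09 in Gai, Gaq and Ga13, a difference of -0.53 ± 0.05 (SE, adjusted p = 1.52e-06). Errfi1, an inhibitor of the EGF receptor, rose in Gaq and Ga13 and passed no test in Gai, with responses of 0.07, 0.24 and 0.36 and a difference of -0.24 ± 0.03 (SE, adjusted p = 6.71e-09). Ier5 and Csrnp1, transcriptional regulators induced early by many stimuli, rose in all 3 lines, by 0.17 and 0.22 in Gai and by 0.40 to 0.56 in the others. Dusp1, Dusp4 and Dusp10 encode phosphatases of MAP kinases, and Spry2 an inhibitor of ERK signalling. Without the block 7 of the 12 remained called and neither of the higher genes did; without Gai replicate 1 the lower members numbered 19.

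Targets of cAMP and CREB that differed were all lower in Gai. Of 26 tested, 10 were lower (Nr4a2, Cited2, Sik1, Nr4a3, Pde4b, Ptgs2, Irs2, Crem, Bdnf and Rgs2) and none was higher, with a median difference of -0.20. These 10 were 38.5 percent of the list, beside 1.69 percent of all genes tested. Nr4a2, an orphan nuclear receptor, had lowest, median and highest levels of 69.6, 98.1 and 108 CPM at rest and 139, 167 and 175 CPM with TRAP-6 in Gai, 39.7, 54.1 and 72.1 CPM at rest and 109.7, 135 and 167 CPM with TRAP-6 in Gaq, and 47.9, 50.6 and 70.4 CPM at rest and 116, 137 and 165 CPM with TRAP-6 in Ga13. Its response was positive in every pair, from 0.70 to 1.04 in Gai, 1.20 to 1.46 in Gaq and 1.05 to 1.47 in Ga13. All Gai pairs lay below all others, and the mean responses of 0.80, 1.34 and 1.29 gave a difference of -0.52 ± 0.04 (SE, adjusted p = 1.73e-14). That call was not made without the block, where the adjusted p was 0.15. Nr4a3, of the same family, responded by 0.38, 0.94 and 0.86 in Gai, Gaq and Ga13 and differed by -0.52 ± 0.06 (SE, adjusted p = 1.47e-05). Sik1, a kinase that CREB induces and that restrains CREB coactivators, rose in Gaq and Ga13 only by the test in each line: its pairs spanned -0.14 to 0.19 in Gai, 0.36 to 0.51 in Gaq and 0.22 to 0.41 in Ga13. No Gai pair of Sik1 reached the lowest pair of the other lines, and the difference was -0.36 ± 0.04 (SE, adjusted p = 6.5e-09). Pde4b, a cAMP phosphodiesterase, fell by 0.12 in Gai and rose by 0.19 in Gaq. Rgs2, which limits Gq signalling, rose in all 3 lines, by 0.63, 1.19 and 1.04, and differed by -0.48 ± 0.12 (SE, adjusted p = 0.0173). Without the block 3 of the 10 remained called (Crem, Sik1 and Nr4a3).

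**Figure D3:**
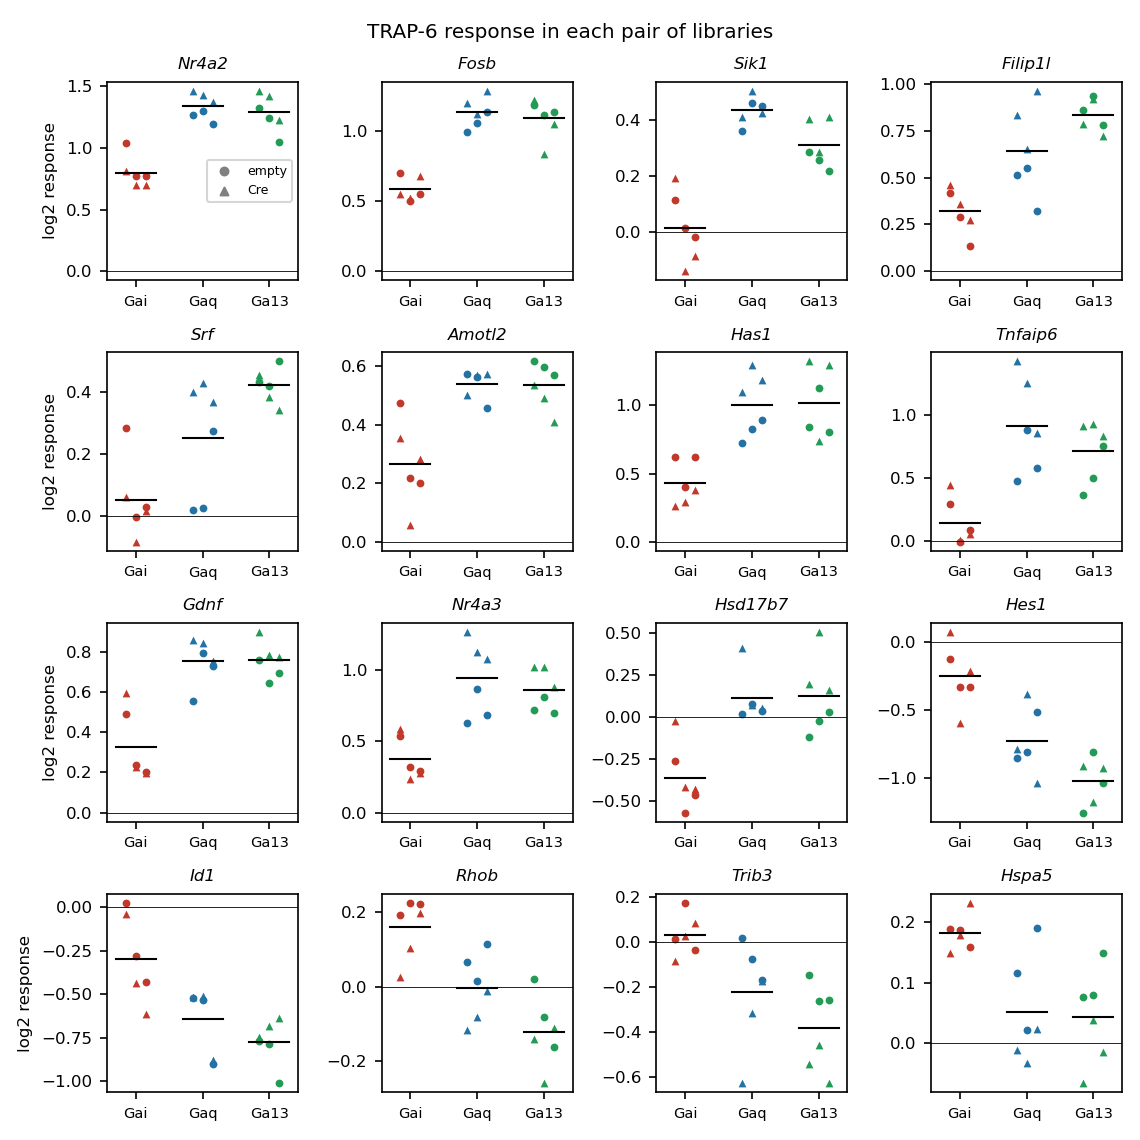
Log2 TRAP-6 response of 16 genes in each pair of libraries (points; circles empty virus, triangles Cre; bars are means of 6 pairs; vertical scales differ between panels). The Gai mean lies below both other means in the panels from Nr4a2 to Hsd17b7 and above them from Hes1 to Hspa5, with overlapping pairs in several panels.

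Genes of the SRF and MRTF pathway, which builds the actin cytoskeleton, differed in 1 direction. Of 35 tested, 7 were lower in Gai (Filip1l, Srf, Lmod1, Pdlim5, Vcl, Lima1 and Actb) and none was higher. The 7 were 20 percent of the list, beside 1.69 percent of all genes tested. The median difference was -0.10, and 9 of the 35 rose in Gai, 17 in Gaq and 24 in Ga13. Filip1l, which encodes a filamin-interacting protein, had lowest, median and highest levels of 79.2, 103 and 116 CPM at rest and 109, 127 and 136 CPM with TRAP-6 in Gai, 34.8, 39.1 and 44.2 CPM at rest and 46.9, 63.0 and 70.4 CPM with TRAP-6 in Gaq, and 48.3, 49.5 and 52.4 CPM at rest and 79.6, 89.0 and 96.2 CPM with TRAP-6 in Ga13. In each state all 6 Gai libraries lay above the 12 others. Its pairs spanned 0.13 to 0.46 in Gai, 0.32 to 0.97 in Gaq and 0.72 to 0.94 in Ga13, overlapping between Gai and Gaq, and the difference was -0.42 ± 0.05 (SE, adjusted p = 1e-09). Srf itself responded by 0.05, 0.25 and 0.42 and differed by -0.28 ± 0.04 (SE, adjusted p = 1.47e-05). Gai empty-virus pair 1 was at 0.28 and its other pairs were at or below 0.06. In Gaq the empty-virus pairs 1 and 2 were at 0.02 and 0.02, within the range of Gai, while all other pairs of Gaq and Ga13 were at 0.27 or more. Srf was not called without the block (adjusted p = 0.34). Lmod1, an actin nucleator of smooth muscle, and Pdlim5, a scaffold of actin filaments, differed by -0.31 ± 0.05 (SE, adjusted p = 0.000115) and -0.19 ± 0.04 (SE, adjusted p = 0.000526). The count depended on Gai replicate 1: 18 members were lower without it, 4 without Gai replicate 3 and 4 without the block.

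Sequences upstream of the named genes were searched for the motifs of CREB and SRF, because both lists differed in 1 direction. The search covered the cAMP response element TGACGTCA and the CArG box bound by SRF, on both strands, in windows of 250 bases before to 50 after each start in RefSeq, and the letters of the motifs do not allow them to overlap. Of 32851 such windows, 1.79 percent held the cAMP response element and 1.63 percent a CArG box; in the 100 bases before the start the shares were 1.15 and 0.615 percent. Of the 69 genes named here, 53 had a window, and the 4 shown had a match in the 100 bases before a start. Windows on the chromosome that holds Nfatc1 and Pdgfrb were left out when sequences to show were sought. A named gene that is not shown was therefore not always searched, and its absence here does not mean that it lacks a match. Those 100 bases are shown 5′ to 3′ with the matches in capitals and the coordinates of GRCm38.p6, a build that differs from that of the counts. Has1 and Errfi1 hold the cAMP response element at 83 and 51 bases before a start. Neither is in the list of cAMP and CREB targets, and no member of that list is shown. Filip1l and Srf, of the SRF and MRTF list, hold CArG boxes, at 62 bases in Filip1l and at 82 and 62 bases in Srf. Errfi1 and Filip1l had 2 windows each, of which 1 is shown.
Has1 (chr17:17855189-17855288, minus strand): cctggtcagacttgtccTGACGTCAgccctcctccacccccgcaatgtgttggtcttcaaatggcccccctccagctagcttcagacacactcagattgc
Errfi1 (chr4:150854970-150855069, plus strand): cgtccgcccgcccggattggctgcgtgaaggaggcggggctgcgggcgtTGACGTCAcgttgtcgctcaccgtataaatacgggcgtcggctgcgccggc
Filip1l (chr16:57549142-57549241, plus strand): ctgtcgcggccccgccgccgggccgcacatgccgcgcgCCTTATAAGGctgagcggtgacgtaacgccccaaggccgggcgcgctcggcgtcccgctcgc
Srf (chr17:46556163-46556262, minus strand): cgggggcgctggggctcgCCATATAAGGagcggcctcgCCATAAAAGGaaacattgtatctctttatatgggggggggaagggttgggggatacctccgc
A match describes the letters only, and a gene without one may still be a target. Because 169 of the 225 lower genes (75.1 percent) had a window, under the 80 percent set as a minimum, motif shares of the whole group are not given.

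Targets of YAP and TAZ split by direction. Of 27, 8 were lower in Gai (Frmd6, Amotl2, Ankrd1, Ccn1, Tgfb2, Lats2, Ccn2 and F3) and 2 were higher (Nuak2 and Gadd45a), with a median difference of -0.03. The called members were 37 percent of the list, beside 1.69 percent of all genes tested. Amotl2, which binds YAP at junctions, had lowest, median and highest levels of 325, 372 and 396 CPM at rest and 412, 434 and 456 CPM with TRAP-6 in Gai, 292, 304 and 321 CPM at rest and 410.2, 452 and 464 CPM with TRAP-6 in Gaq, and 317, 322 and 338 CPM at rest and 446, 474 and 495 CPM with TRAP-6 in Ga13. It rose in all 3 lines, by 0.27, 0.54 and 0.54, and differed by -0.27 ± 0.04 (SE, adjusted p = 6.79e-07). Frmd6, an upstream part of the Hippo pathway, responded by 0.06, 0.33 and 0.44 and differed by -0.33 ± 0.04 (SE, adjusted p = 1.93e-09). Ankrd1, a nuclear and sarcomeric ankyrin protein, and Ccn1, a matricellular protein, differed by -0.31 ± 0.05 (SE, adjusted p = 0.000272) and -0.17 ± 0.03 (SE, adjusted p = 0.000419). Ccn1 still rose in Gai, by 0.12, while Ankrd1 was at 0.04 there and passed no test. Without the block, Frmd6 and Amotl2 were the list's only called members, and without Gai replicate 3 the called members were 5, all lower.

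Several inflammatory genes also had a lower response in Gai. Of 35 NF-kB and inflammatory genes, 10 were lower (Has1, Tnfaip6, Ptgs2, Il33, Nfkbiz, Has2, Socs3, Il1rl1, Il6 and Tnfaip3) and none was higher. These 10 were 28.6 percent of the list, beside 1.69 percent of all genes tested. The list's median difference was -0.10, and 3 remained without the block (Has1, Tnfaip6 and Tnfaip3). The lower members numbered 5 without Gai replicate 2 and 4 without Gai replicate 3. Tnfaip6, which encodes a hyaluronan-binding protein, had lowest, median and highest levels of 32.8, 38.0 and 40.4 CPM at rest and 34.9, 41.0 and 53.0 CPM with TRAP-6 in Gai, 9.46, 12.7 and 14.6 CPM at rest and 20.3, 23.0 and 30.5 CPM with TRAP-6 in Gaq, and 12.4, 14.8 and 16.4 CPM at rest and 21.1, 24.2 and 26.5 CPM with TRAP-6 in Ga13. In each state all 6 Gai libraries lay above the 12 others. Responses averaged 0.15, 0.92 and 0.72 in Gai, Gaq and Ga13, and the difference of -0.67 ± 0.09 (SE, adjusted p = 1.93e-06) remained called without the block. Has1, a hyaluronan synthase, rose in all lines, by 0.43, 1.00 and 1.01; every Gai pair lay below the others, and the difference was -0.57 ± 0.08 (SE, adjusted p = 3.7e-07). Ptgs2, the inducible cyclooxygenase, rose by 0.31, 0.46 and 0.59 and differed by -0.21 ± 0.04 (SE, adjusted p = 0.000288). Il33, an alarmin cytokine, had responses of 0.03, 0.44 and 0.68 in Gai, Gaq and Ga13 and passed no test in Gai.

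Of 35 secreted growth factors, 8 were lower (Gdnf, Inhba, Tgfb2, Ereg, Bdnf, Fgf10, Igf1 and Hgf) and none was higher, with a median difference of -0.12. These 8 were 22.9 percent of the list, beside 1.69 percent of all genes tested. Gdnf, a ligand of the RET receptor, had lowest, median and highest levels of 121, 141 and 147 CPM at rest and 161, 168 and 183 CPM with TRAP-6 in Gai, 43.8, 48.8 and 51.2 CPM at rest and 75.2, 80.9 and 85.5 CPM with TRAP-6 in Gaq, and 52.4, 55.6 and 61.6 CPM at rest and 88.7, 95.5 and 105 CPM with TRAP-6 in Ga13. Resting Gai libraries lay above even the stimulated libraries of the other lines. Pair responses spanned 0.20 to 0.59 in Gai, 0.55 to 0.86 in Gaq and 0.65 to 0.90 in Ga13, with 1 Gai pair, Cre replicate 1, reaching into the range of Gaq, and the difference was -0.43 ± 0.05 (SE, adjusted p = 6.71e-09). Inhba, which encodes the activin A subunit, and Ereg, an EGF receptor ligand, rose in Gaq and Ga13, and Ereg also in Gai, by 0.18. Their differences were -0.32 ± 0.05 (SE, adjusted p = 0.000292) and -0.33 ± 0.05 (SE, adjusted p = 0.000534). Fgf10, Igf1 and Hgf, factors that fibroblasts supply to epithelium, followed another course: they fell in Gai, by 0.28, 0.24 and 0.19, and passed no test in Gaq or Ga13. Gdnf, Inhba and Ereg remained called without the block, and 4 members were lower without Gai replicate 3.

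Among 15 plasminogen activators, serpins and clotting regulators, 4 were lower (Serpinb2, Thbd, F3 and Serpinb8), with a median difference of -0.09. These 4 were 26.7 percent of the list, beside 1.69 percent of all genes tested. Serpinb2, an inhibitor of urokinase, had lowest, median and highest levels of 73.3, 96.1 and 104 CPM at rest and 97.5, 114 and 149 CPM with TRAP-6 in Gai, 23.2, 30.7 and 42.0 CPM at rest and 57.9, 65.2 and 68.0 CPM with TRAP-6 in Gaq, and 20.04, 29.2 and 35.9 CPM at rest and 62.7, 67.1 and 80.1 CPM with TRAP-6 in Ga13. It rose in all 18 pairs, but each of the 6 Gai pairs was below every other pair, and the difference was -0.80 ± 0.09 (SE, adjusted p = 3.65e-05). Thbd, the thrombin cofactor thrombomodulin, and F3, tissue factor, differed by -0.47 ± 0.07 (SE, adjusted p = 0.000552) and -0.33 ± 0.06 (SE, adjusted p = 0.00617). F3 was 1518 to 2142 CPM at rest in Gai and 638 to 873 CPM in the other lines. Serpinb2 and Thbd remained called without the block, and 7 members were lower without Gai replicate 1. Of 32 extracellular matrix genes, 3 were lower: Tnc, the matrix protein tenascin-C, at -0.23 ± 0.03 (SE, adjusted p = 6.07e-05); Adamts1, a metalloprotease, at -0.46 ± 0.07 (SE, adjusted p = 0.000962); and Col8a1 at -0.13 ± 0.04 (SE, adjusted p = 0.0287). The 3 were 9.4 percent of the matrix list, whose median difference was -0.02. Without the block Tnc and Adamts1 remained called. The call of Col8a1 was lost in 17 of 51 alternative fits.

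Some genes of cholesterol synthesis and its control fell in Gai, and others rose in Ga13. Of 27, 6 were lower in Gai (among them Msmo1, Stard4, Hsd17b7, Lss and Fdft1), none was higher, and 24 had a difference below zero, with a median of -0.15. The 6 were 22.2 percent of the list, beside 1.69 percent of all genes tested. In Gai 7 of the 27 fell and none rose, and in Ga13 4 rose and 1 fell. Hsd17b7, a sterol reductase, had lowest, median and highest levels of 72.5, 83.0 and 98.0 CPM at rest and 52.4, 64.9 and 84.3 CPM with TRAP-6 in Gai, 27.8, 31.0 and 34.3 CPM at rest and 29.4, 34.2 and 37.0 CPM with TRAP-6 in Gaq, and 35.4, 41.9 and 43.3 CPM at rest and 38.6, 44.5 and 50.3 CPM with TRAP-6 in Ga13. In each state its Gai libraries all lay above those of the other lines. It fell by 0.36 in Gai, passed no test in Gaq or Ga13, and differed by -0.49 ± 0.10 (SE, adjusted p = 0.0156). Msmo1, a sterol oxidase, rose in Gaq and Ga13 and passed no test in Gai, with responses of -0.07, 0.18 and 0.27 and a difference of -0.29 ± 0.06 (SE, adjusted p = 0.00457). Stard4, a sterol carrier, fell in Gai alone by the tests in each line and differed by -0.26 ± 0.06 (SE, adjusted p = 0.00592). In the replicate-1 pairs of Gai the list's median response was 0.003 and 0.01, and in its other 4 pairs it was -0.19 to -0.16. Without Gai replicate 1, 14 members were lower; without Gai replicate 3 the count was 1, and without the block it was 2, with Hsd17b7 among them.

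**Figure D4:**
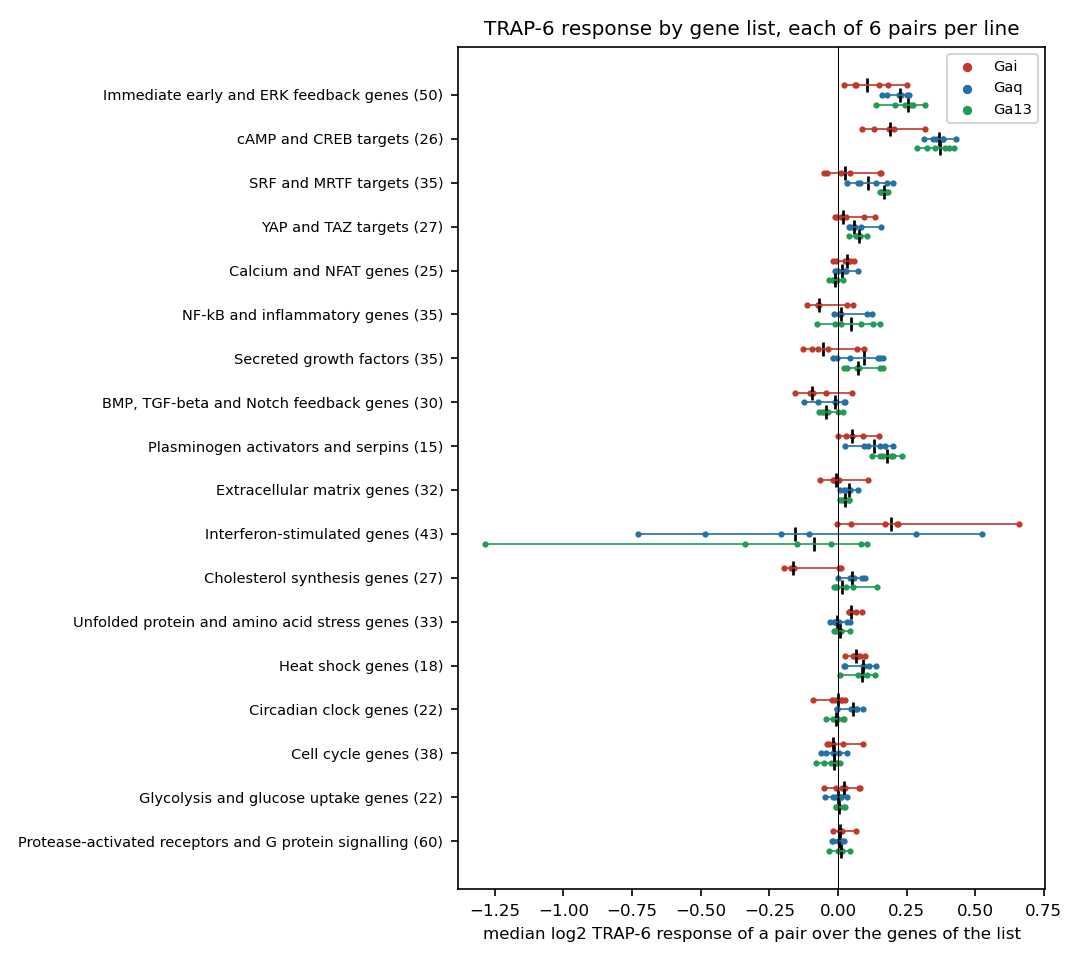
Median log2 TRAP-6 response of each pair of libraries (points) over each of 18 gene lists, with the range as a line and the median of 6 pairs as a black tick; numbers of tested genes are in brackets. For the cAMP and CREB list the Gai pairs run from 0.09 to 0.32 and the Gaq and Ga13 pairs from 0.29 to 0.43, and the interferon list has the widest spread.

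Some stress genes had a higher response in Gai. Of 33 genes of the unfolded protein and amino acid responses, 4 were higher in Gai (Ddit3, Hspa5, Trib3 and Herpud1) and none was lower, with a median difference of 0.05. These 4 were 12.1 percent of the list, beside 1.69 percent of all genes tested. Hspa5, the chaperone BiP, rose in Gai alone by the tests in each line, with pairs of 0.15 to 0.23 in Gai, -0.03 to 0.19 in Gaq and -0.07 to 0.15 in Ga13, and differed by 0.13 ± 0.03 (SE, adjusted p = 0.00502). Trib3, a pseudokinase that ATF4 induces, had lowest, median and highest levels of 12.7, 15.7 and 18.8 CPM at rest and 12.0, 16.5 and 18.3 CPM with TRAP-6 in Gai, 25.6, 28.5 and 30.8 CPM at rest and 19.9, 25.1 and 28.4 CPM with TRAP-6 in Gaq, and 25.3, 26.3 and 28.0 CPM at rest and 17.9, 20.4 and 22.9 CPM with TRAP-6 in Ga13. It fell in Gaq and Ga13, by 0.22 and 0.38, and was at 0.03 in Gai; the difference was 0.34 ± 0.08 (SE, adjusted p = 0.00502). Ddit3, the transcription factor CHOP, fell in the same lines and differed by 0.27 ± 0.06 (SE, adjusted p = 0.00457). None of the 4 was called without the block or without Gai replicate 3. Of 18 heat shock genes only Hspa4l (5.6 percent of the list) was lower, at -0.28 ± 0.06 (SE, adjusted p = 0.00272). The count was 0 without the block or without Gai replicate 3, and 3 without Gai replicate 1. Of 22 circadian clock genes only Usp2 (4.5 percent of the list) was lower, and 2 were without Gai replicate 1. With 1 called gene, neither list as a whole was shown to differ. Usp2, a deubiquitinase under clock control, had lowest, median and highest levels of 23.6, 30.5 and 36.3 CPM at rest and 37.2, 43.6 and 55.8 CPM with TRAP-6 in Gai, 16.3, 21.2 and 28.8 CPM at rest and 49.6, 53.8 and 57.5 CPM with TRAP-6 in Gaq, and 17.2, 18.2 and 22.6 CPM at rest and 42.6, 47.7 and 55.4 CPM with TRAP-6 in Ga13. It rose in every pair, least in Gai (0.58, 1.33 and 1.34 in Gai, Gaq and Ga13), with a difference of -0.76 ± 0.07 (SE, adjusted p = 6.05e-12) that remained without the block.

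The 5 differences furthest below zero among the named genes were in genes of a few CPM (Kcnk10, Nfatc2, Zfp423, Ncald and Kprp). Kcnk10, a two-pore potassium channel, had lowest, median and highest levels of 2.65, 3.64 and 4.72 CPM at rest and 3.79, 5.00 and 10.1 CPM with TRAP-6 in Gai, 0.506, 0.835 and 2.10 CPM at rest and 2.28, 3.44 and 4.24 CPM with TRAP-6 in Gaq, and 0.919, 1.05 and 1.92 CPM at rest and 2.99, 4.47 and 5.14 CPM with TRAP-6 in Ga13. Resting Gai libraries lay above all other resting libraries. Responses of 0.61, 1.94 and 1.91 gave a difference of -1.32 ± 0.20 (SE, adjusted p = 4.16e-06). Nfatc2 and Nfatc1, calcium-regulated transcription factors, were the 2 lower members (8 percent) of 25 calcium and NFAT genes, whose median difference was 0.02. Nfatc2 rose in all lines, by 0.96, 2.14 and 2.21, and differed by -1.21 ± 0.27 (SE, adjusted p = 0.00486); Nfatc1 rose in Gaq and Ga13 only by the test in each line and differed by -0.38 ± 0.07 (SE, adjusted p = 0.000656). Neither was called without the block (adjusted p = 0.476 and 0.81), and 1 was without Gai replicate 3. Kprp, a cornified envelope protein, Ncald, a neuronal calcium sensor, and Sprr1a, a small proline-rich protein, rose in Gaq and Ga13 and, Ncald excepted, in Gai, with differences of -0.99 ± 0.20, -1.07 ± 0.22 and -0.64 ± 0.18. Zfp423, a transcription factor of fat cell precursors, and Aspn, the matrix protein asporin, fell in Gai alone by the tests in each line, with differences of -1.21 ± 0.33 and -0.78 ± 0.21. The calls of Sprr1a, Zfp423 and Aspn were lost in 24 of 51, 23 of 50 and 11 of 51 alternative fits. Sgk1, a serum-induced kinase, had the smallest p of all genes tested: its levels were 1061, 1117 and 1226 CPM at rest and 1181, 1286 and 1303 CPM with TRAP-6 in Gai, 743, 807 and 892 CPM at rest and 1104, 1170.1 and 1213 CPM with TRAP-6 in Gaq, and 768, 852 and 945 CPM at rest and 1184, 1222 and 1288 CPM with TRAP-6 in Ga13, its pairs spanned 0.09 to 0.23 in Gai, 0.44 to 0.58 in Gaq and 0.44 to 0.65 in Ga13, and the difference was -0.35 ± 0.03 (SE, adjusted p = 9.16e-15).

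Hes1 and Id1, which fell in all 3 lines, fell less in Gai. Of 30 feedback genes of BMP, TGF-beta and Notch, 2 (6.7 percent) were higher in Gai (Hes1 and Id1) and none was lower, and the median difference was -0.04. None was called without the block, and without Gai replicate 1 the list had 3 lower members and 1 higher. Hes1, a repressor that Notch induces, had lowest, median and highest levels of 15.9, 25.6 and 29.1 CPM at rest and 14.9, 20.02 and 21.8 CPM with TRAP-6 in Gai, 18.9, 19.9 and 24.1 CPM at rest and 10.9, 12.4 and 14.7 CPM with TRAP-6 in Gaq, and 20.2, 20.8 and 23.5 CPM at rest and 9.82, 10.5 and 11.5 CPM with TRAP-6 in Ga13. The resting levels overlapped, while each stimulated Gai library was above every stimulated library of the other lines. It fell by 0.27, 0.73 and 1.03 in Gai, Gaq and Ga13, and the difference was 0.61 ± 0.09 (SE, adjusted p = 2.29e-06). Without the block that p was 0.135. Id1, an inhibitor of bHLH factors that BMP induces, fell by 0.30, 0.65 and 0.78 and differed by 0.42 ± 0.10 (SE, adjusted p = 0.00827). Without Gai replicate 1 the difference of Id1 was 0.27 and not called (edgeR adjusted p = 0.228). Foxc2, a forkhead factor, and Zfp503, a zinc finger repressor, fell in Gaq and Ga13 and differed by 0.40 ± 0.08 (SE, adjusted p = 0.00102) and 0.37 ± 0.05 (SE, adjusted p = 2.19e-07). Foxc2 was not called without Gai replicate 1 (0.27, edgeR adjusted p = 0.0952) or without the block (adjusted p = 0.316). Zfp503 also fell in Gai, by 0.30, and every Gai pair lay above the others. Slc20a1, a phosphate transporter, fell by 0.47, 0.64 and 0.74 and differed by 0.22 ± 0.04 (SE, adjusted p = 8.47e-05). Ppp1r3b, a glycogen-targeting phosphatase subunit, fell in Gaq and Ga13 and was at 0.06 in Gai, a difference of 0.42 ± 0.09 (SE, adjusted p = 0.00399). Differences of 0.49 to 0.76 were seen in 5 genes of a few CPM (Rpusd3, Dedd2, Arhgdig, Lyplal1 and Sh2d6), which rose in Gai and passed no test in the other lines. The call of Dedd2 was lost in 33 of 51 alternative fits, and those of Arhgdig and Sh2d6 in 31 each. Abcb1a, a drug efflux pump, did the same, at 0.40 ± 0.10 (SE). Of these 69 named genes 30 remained called without the block, 3 of them higher (Lyplal1, Ppp1r3b and Zfp503).

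In the receptor pathway itself few TRAP-6 responses differed. Of 60 protease-activated receptor and G protein signalling genes, Rgs2 and Rock2 were lower and Rhob was higher. These were 5 percent of the list, beside 1.69 percent of all genes tested, and the median difference was 0.01. None of the 3 was called without the block; without Gai replicate 1 the list had 3 lower members and 1 higher, without Gai replicate 2 it had 1 and 1, and without Gai replicate 3 it had 0 and 1. Rhob, a small GTPase that growth factors induce, had lowest, median and highest levels of 428, 553 and 599 CPM at rest and 436, 626 and 699 CPM with TRAP-6 in Gai, 464, 492 and 498 CPM at rest and 439, 492 and 537 CPM with TRAP-6 in Gaq, and 452, 472 and 507 CPM at rest and 408, 442 and 458 CPM with TRAP-6 in Ga13. It rose in Gai and fell in Ga13, with responses of 0.16, -0.0027 and -0.12 and a difference of 0.22 ± 0.03 (SE, adjusted p = 1.52e-06), which was not called without the block (adjusted p = 0.719). Rock2, a kinase that RhoA activates, rose by 0.14 in both other lines and was at 0.02 in Gai, a difference of -0.12 ± 0.03 (SE, adjusted p = 0.035). The call of Rock2 was lost in 20 of 51 alternative fits. None of the 11 tested alpha subunit genes passed the test; Gnai2, Gnaq and Gna13, for example, were at -0.03 ± 0.03, 0.01 ± 0.04 and 0.09 ± 0.04 (SE), with adjusted p of 0.861, 0.967 and 0.448.

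Lists without a called gene were the interferon-stimulated genes (43), cell cycle genes (38) and glycolysis genes (22), of which 1 glycolysis gene was called without Gai replicate 2. Interferon-stimulated genes had the largest median difference of any pathway list, 0.39, and 41 of the 43 lay above zero, yet pairs of 1 line disagreed. Their median response per pair ran from -0.004 to 0.66 in Gai, from -0.73 to 0.52 in Gaq and from -1.29 to 0.11 in Ga13, so the lines overlapped. Among cell type markers, Vim and Pdgfrb of 12 fibroblast markers were lower, at -0.10 ± 0.03 (SE, adjusted p = 0.0274) and -0.12 ± 0.03 (SE, adjusted p = 0.036). Their calls were lost in 17 and 21 of 51 alternative fits. All 12 differences were below zero, with a median of -0.09. No fibroblast marker was called without the block, without Gai replicate 2 or without Gai replicate 3, and 5 were lower without Gai replicate 1. Lmod1 was the only lower one of 10 smooth muscle markers; without Gai replicate 1, 3 were lower and 1 was higher. Of 10 mesothelial markers Msln was higher, at 0.20 ± 0.05 (SE, adjusted p = 0.0147), and Wt1 was lower, at -0.17 ± 0.05 (SE, adjusted p = 0.0274); neither was called without the block or without Gai replicate 3. No marker of endothelial cells, macrophages, epithelium, lymphocytes or erythroid cells was called, but only 3 of 13 epithelial and 2 of 11 lymphocyte and erythroid markers had enough counts to be tested, against all 10 endothelial and 14 of 15 macrophage markers.

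Most of the genes with a lower response were higher at rest in Gai. In 211 of the 225 the resting level was above the mean of the other lines, against 8510 of all 16749 genes, with a median difference at rest of 0.51 and of 0.28 after TRAP-6. The stimulated level was lower in Gai in 60 of the 225. In the 58 higher genes the resting level was higher in Gai in 9, with a median difference at rest of -0.32 and of -0.07 after TRAP-6. Resting level and response share the unstimulated libraries, so noise in these moves both, and no test was made of their relation. Gdnf, Fosb, Serpinb2 and Tnfaip6 each had all 6 resting Gai libraries above the 12 others, and so had 33 of the 69 named genes in all, beside 1340 of all 16749 genes (8 percent).

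**Figure D5:**
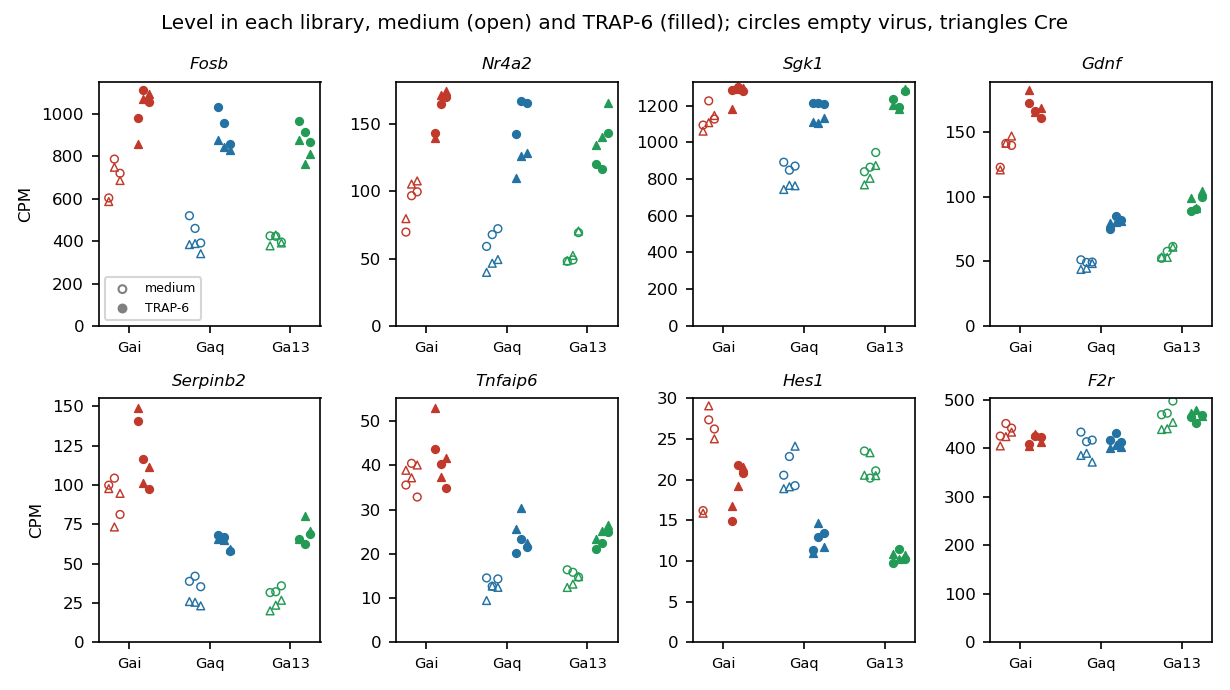
CPM of 8 genes in each library (open, medium; filled, TRAP-6; circles empty virus, triangles Cre), with each vertical axis starting at 0. Fosb has overlapping levels with TRAP-6 in the 3 lines and higher resting levels in Gai, Hes1 is higher with TRAP-6 in Gai, and F2r stays between 371.5 and 497.3 CPM.

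The difference had the same sign under both viruses in 223 of the 225 lower and in all 58 higher genes, beside 9238 of all 16749 genes; the genes were chosen on the mean over both viruses, so this agreement is no independent support. With empty virus alone, 29 genes were called (0.173 percent of genes tested; 6 higher, 23 lower), all among the 283, and 1 without the block. With Cre alone 306 were called (1.83 percent; 53 higher, 253 lower), and 41 without the block. Over the 225 genes the median difference was -0.20 with empty virus and -0.34 with Cre. The difference between the viruses was tested directly and held for 1 gene (0.00597 percent), Sparcl1, a matricellular protein, at 0.05 with empty virus and -0.32 with Cre; their difference was -0.37 ± 0.07 (SE, adjusted p = 0.0359), and it was not called without the block. Sgk1, Nr4a2, Usp2, Cited2, Fosb, Hes1 and Rhob were among the named genes called under each virus on its own.

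Set against 1 line at a time, 161 genes differed from Gaq (0.961 percent; 21 higher, 140 lower, the latter 0.836 percent) and 288 from Ga13 (1.72 percent; 70 higher, 218 lower, the latter 1.3 percent). These comparisons share the Gai libraries with each other and with the main one, which shared 140 and 222 of the calls. Gaq and Ga13 differed from each other in 7 genes (0.0418 percent), 6 higher and 1 lower in Gaq, and in none without the block. Within lines, 946 genes responded in Gai (5.65 percent; 530 up, 416 down), 1283 in Gaq (7.66 percent; 836 up, 447 down) and 1688 in Ga13 (10.1 percent; 886 up, 802 down).

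Of the 283 genes, 59 responded in Gai alone by the tests in each line, 32 lower and 27 higher. Sox9, a transcription factor of cartilage and lung development, fell by 0.22 in Gai and differed by -0.28 ± 0.05 (SE, adjusted p = 0.000115). Tnxb, the matrix protein tenascin-X, and Prrx1, a homeobox factor of mesenchymal cells, fell by 0.30 and 0.13 and differed by -0.33 ± 0.06 (SE, adjusted p = 0.000272) and -0.15 ± 0.03 (SE, adjusted p = 0.00189). A call in 1 line and none in another is not a test of their difference, which is the value given. In 10 genes Gai and another line were called in opposite directions. Maf, a bZIP factor, fell in Gai and rose in Ga13, with responses of -0.21, 0.08 and 0.10 in Gai, Gaq and Ga13. Apoe, a lipid carrier, and Dbi, an acyl-CoA binding protein, followed the same course, with responses of -0.16, -0.02 and 0.17 for Apoe and -0.17, 0.05 and 0.18 for Dbi. Sox9, Tnxb, Prrx1, Maf, Apoe, Dbi, Pde4b, Fgf10, Igf1, Hgf, Jun and the phosphatase genes were picked out after their values were seen.

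Counting did not state strand in the sources used here, so reads of overlapping genes cannot be told apart. In the GENCODE mouse annotation, of another build, exons of 14 of the 69 named genes overlap those of another gene (Rpusd3, Dedd2, Arhgdig, Abcb1a, Ncald, Serpinb2, Aspn, Usp2, Slc20a1, Csrnp1, Tgfb2, Ereg, Tnc and Ddit3), and their values are uncertain to that extent. The same holds for Bdnf, Ccn2, Crem, Dusp1, Fdft1, Fgf10, Gadd45a, Has2, Hgf, Irs2, Jun, Lats2, Lss, Maf and Vcl.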

How the data were processed

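RNA-seq libraries of 36 lung fibroblast samples were used as deposited tables of gene counts. The authors trimmed reads with fastp, aligned them to GRCm39 with Subread and counted them with featureCounts, per the submitters' processing notes. Versions, annotation and strand setting are not given in the sources used here. The tables were joined by gene and the biosensor row was removed. Depth was 15606007 to 42564149 counts per library. Genes were filtered by edgeR's filterByExpr, leaving 16749, and scaled by TMM. A robust quasi-likelihood fit in edgeR 4.0.16 (R 4.3.3) held 12 group means and replicate number within line as a block, with 18 residual degrees of freedom. P-values were adjusted by Benjamini-Hochberg over all genes tested, and a call is an adjusted p under 0.05. Standard errors are the log2 difference divided by the square root of F. Pair responses are log2 CPM differences with a prior count of 2. Named genes have a mean of at least 1 CPM and the same sign against both lines and under both viruses: the 10 highest and 10 lowest differences, the 4 smallest p in each direction, and up to 4 called members of each list. The comparison and lists were chosen with earlier results of these data known. Alternatives were DESeq2 1.42.0, voom in limma 3.58.1, other scaling, no filter, no block and left-out libraries or replicates. Line weights and the per-list counts without the block or a Gai replicate were chosen after seeing the data. In simulated data, 93 of 100 genes changed by 0.5 (log2) and 100 of 100 changed by 1 were recovered, with 11 false calls. Those data held no replicate effect, so they do not cover the dependence on the block and replicates. The 12 astrocyte libraries were not used, and the values of a few called genes are not reported here.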

Additional observations from a re-analysis of the deposited data

Results flagged for a closer look

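Lines differed under the same contrast by direct tests in edgeR. The response of Gai differed from the mean of Gaq and Ga13 in 283 genes, from Gaq in 161, from Ga13 in 288, with empty virus in 29 and with Cre in 306, and Gaq differed from Ga13 in 7. Between the viruses the difference of Gai from the other lines changed in Sparcl1, by -0.37.

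The 7 genes that separated Gaq from Ga13 (log2 response in Gaq minus Ga13) included Mrtfa, a coactivator of SRF, at 0.24, Slc25a37, a mitochondrial iron carrier, at 0.29, Nedd9, a focal adhesion scaffold, at 0.31, Tns2, a tensin, at 0.24, Pfkfb3, a glycolytic regulator, at 0.21, and Gm10221 at -0.30. None of the 7 was called between Gai and the mean of the other lines.

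In 10 genes the response was called in Gai and, with the opposite sign, in Gaq or Ga13. Among them, the difference of Gai from the mean of the others was -0.30 for Maf, -0.31 for Cdk17, -0.26 for Pde4b, -0.22 for Sipa1l2, -0.24 for Apoe, -0.28 for Dbi and -0.28 for Atp8b1, and it was 0.22 for Rhob and 0.18 for Vars1. The exons of Mrtfa, Slc25a37, Nedd9, Cdk17 and Maf overlap those of other genes.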

How the results depend on the processing

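The replicate block moved every count. The labels do not say what the replicate numbers mark, and not every correlation between same-numbered libraries was over 0.1: they were 0.03 to 0.32 in Gai (8 of 18 over 0.1), -0.03 to 0.07 in Gaq and -0.01 to 0.08 in Ga13. With no replicate block, the calls numbered 68 for Gai against the other lines, 1 with empty virus, 41 with Cre, 0 between the viruses, 23 against Gaq, 53 against Ga13, 0 between Gaq and Ga13, and 398, 672 and 966 for the responses of Gai, Gaq and Ga13; at an unadjusted p under 0.05 that fit had 581 genes between the viruses and 851 between Gaq and Ga13. DESeq2 called 51 genes with empty virus and 26 between Gaq and Ga13. With no low-count filter the counts were 61 with empty virus, 37 between the viruses and 35 between Gaq and Ga13. A minimum of 1.5-fold left 19 of the 283. Under DESeq2, voom, RLE scaling, no filter and line weights the main count was 349, 272, 309, 396 and 295.

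Leaving out 1 library or 1 replicate number of a line gave 120 (without Gai replicate 3) to 492 (without Gai replicate 1) for the main comparison, 12 to 65 with empty virus, 110 to 458 with Cre, 0 to 16 between the viruses, 61 to 309 against Gaq, 140 to 485 against Ga13 and 0 to 16 between Gaq and Ga13. The line responses gave 551 to 977 in Gai, 778 to 1341 in Gaq and 1052 to 1720 in Ga13. The causes were not tested. Of the 69 named genes 26 stayed called in every alternative run that gave them an adjusted p, and 0 changed sign. DESeq2 gave no adjusted p for Nfatc2, Zfp423 and Ncald, and Ncald is among the 26. Depth limits genes of a few CPM, such as Zfp423 and Rpusd3.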
